A study of Mus musculus with 12 samples.

Results

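Reported targets of the seed that miR-590-5p and miR-21 share, 10 genes in all, were followed across 12 RNA libraries of transfected mouse cells. They are Pdcd4, Timp3, Spry1, Spry2, Reck, Btg2, Yod1, Peli1, Tiam1 and Skp2. They were listed by name, with earlier results of these data known. They make up 10 of the 47643 genes in the deposited count files. All 10 passed the filter on low counts, as did 13229 genes in all. C3H/10T1/2 is a mouse embryonic line with fibroblast morphology, which the labels also tag as sarcoma, and it was transfected transiently and without a virus with 1 of 4 plasmids. The tested plasmid was pH_BMP2ADV590, and it was set against the hybrids pH_BMP2ADV20a and pH_BMP2ADV148b and against pH_BMP2ADV, which the series' design names as the reference, with 3 libraries each. All 4 groups thus carry a BMP2ADV plasmid, and no untransfected or empty-plasmid group was analysed here. The suffix 590 is read here as miR-590. The labels do not spell out the insert, its arm or the share of cells that took up plasmid. Cells were grown to 80% confluence and transfected with a polymer reagent, and RNA was collected 3 days later. QuantSeq 3' libraries were made, which count the 3' ends of polyadenylated messages and do not measure mature miRNAs. Whether replicate libraries stem from different cultures is not labelled, and p-values measure only the spread between these libraries, which may be technical.

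A microRNA directs the RNA-induced silencing complex to messages whose 3' untranslated region pairs with its seed, the bases near its 5' end, and such messages are usually translated less and degraded sooner. The miR-21 targets listed here are known mostly as brakes: on growth factor signalling (Spry1, Spry2), on matrix proteases (Timp3, Reck), on translation (Pdcd4) and on proliferation (Btg2). A target that is repressed through message decay would have fewer counts where the miRNA is raised. A miRNA that acts mainly on translation would leave the counts little changed.

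The mature mouse sequences of the miR-21 family are shown because their seed, bases 2 to 8 in capitals, defines the sites that were searched for. They are RefSeq entries on GRCm38.p6, 5' to 3', at chr11:86584120-86584141 (minus strand) for miR-21a-5p and chr8:128278188-128278208 (minus strand) for miR-21c.
mmu-miR-21a-5p: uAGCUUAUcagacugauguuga
mmu-miR-21c: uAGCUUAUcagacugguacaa
Both carry the same seed. The RefSeq table used here gave no entry for miR-590, so its own sequence is not printed, and that it shares this seed comes from the choice of the gene list.

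All 10 genes held at least 1 full or partial match to this seed in the longest annotated 3' UTR. The UTRs were read on the sense strand in GENCODE M21 (GRCm38). In 9 genes a match covered all of the seed, and in Btg2 only part of it. The motifs searched were ATAAGCTA (8mer, seed match followed by A), ATAAGCT without that A (7mer-m8), and TAAGCTA without the first A (7mer-A1), and each match was counted once under the longest motif. An 8mer was found in 8 of the 10, with 2 in Yod1. The sites that the results turn on, and those of the 2 genes without an 8mer, are shown with up to 11 flanking bases, with the match in capitals.
Pdcd4 8mer, chr19:53929432-53929439 (plus strand): tgggtgttctgATAAGCTActttctaagtg
Timp3 8mer, chr10:86348227-86348234 (plus strand): ttgagctttcaATAAGCTAtagctttgttt
Skp2 8mer, chr15:9113221-9113228 (minus strand): gactttgaagaATAAGCTAtatgtacggtg
Tiam1 7mer-m8, chr16:89787194-89787200 (minus strand): atatttcttttATAAGCTgaaagaaggtc
Btg2 7mer-A1, chr1:134075452-134075458 (minus strand): tggtaagtttgTAAGCTAttctgacagaa
The coordinates are those of the capitals. Of 11591 tested genes with an annotated 3' UTR, 2.48% held an 8mer, 8.61% an 8mer or 7mer-m8 and 13.45% any of the 3. Long UTRs hold such letters more often. Among UTRs within 20% of its own length, 3.79% held an 8mer or 7mer-m8 for Pdcd4 (717 bases), 16.8% for Timp3 (3604 bases) and 23.7% for Skp2 (4872 bases). The members were listed as reported targets of miRNAs with this seed, so the count of sites describes the list.

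**Figure D1:**
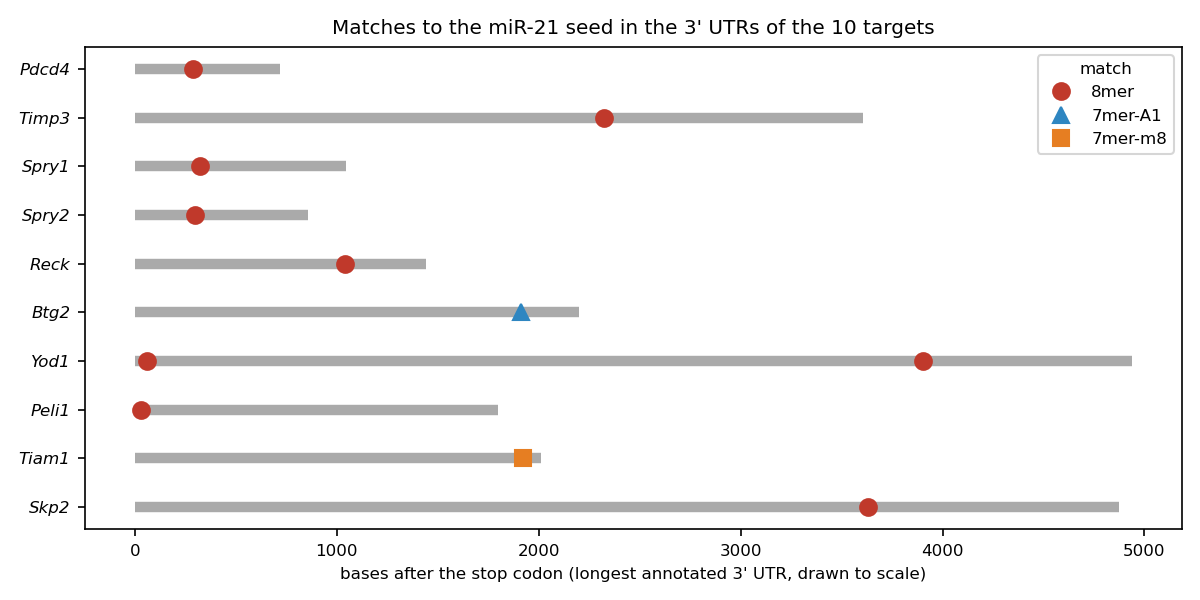
Position of each seed match along the longest annotated 3' UTR of the 10 genes; the x axis is bases after the stop codon, grey bars are UTRs to scale, and symbols mark 8mer, 7mer-A1 and 7mer-m8 matches. The Peli1 match starts 32 bases after the stop codon and that of Skp2 3629 bases after it.

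The Pdcd4 match lay 289 bases after the stop codon, that of Timp3 2325 bases and that of Tiam1 1922 bases. The matches of Spry1, Spry2, Reck and Btg2 began 322, 298, 1042 and 1911 bases after the stop codon. Those of Yod1 began 60 and 3904 bases after it. Every annotated 3' UTR of a gene was also searched, the longest included, so matches could only be added. Btg2 still had no 8mer or 7mer-m8.

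None of the 10 targets was lower in BMP2ADV590 than in the mean of the other 3 groups at the threshold used, an adjusted p under 0.05 in edgeR's quasi-likelihood test with Benjamini-Hochberg adjustment over all 13229 genes. Timp3 and Pdcd4 were higher, 1.36-fold and 1.35-fold, and the other 8 did not pass. Of all genes tested, 8.06% passed in either direction, 4.49% higher and 3.57% lower. Of the 10 estimates, 6 lay above 0 and 4 below, and their median log2 fold change was 0.14, against 0.0066 over all genes tested. In edgeR, 5 of the 10 had an unadjusted p under 0.05 (Pdcd4, Timp3, Peli1 and Spry1 on the higher side and Skp2 on the lower). Of all 13229 genes tested, 2773 had an unadjusted p under 0.05. DESeq2, which gave an adjusted p for 9 of the 10 and none for Spry1, called Skp2 lower as well (adjusted p = 0.0459), and limma-voom called none lower. In these bulk libraries, a change in the share of cells of 1 kind and a change in the RNA of each cell cannot be told apart. On the second principal component, BMP2ADV590 replicates 1 to 3 lay at 22.6, -23.4 and 9.63. Without BMP2ADV590 replicate 2, 4 of the 10 passed: Pdcd4, Timp3, Reck and Skp2. In that fit 7.06% of all genes tested passed, 4.16% higher and 2.9% lower. With BMP2ADV590 replicate 1 left out instead, 1 of the 10 passed (Timp3, higher). In this other fit 5.65% of all genes tested passed, 3.02% higher and 2.63% lower.

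Timp3 (ENSMUSG00000020044, chr10:86300372-86349506, plus strand) encodes a tissue inhibitor of metalloproteinases that binds the extracellular matrix. It lies within the span of Syn3 on the opposite strand, which had at most 24 reads in a library. Its level, as counts scaled to library size with edgeR's TMM factors (CPM), was 5981, 6104 and 5619.7 in BMP2ADV590 libraries 1 to 3. It was 4429, 4476 and 4829 CPM in BMP2ADV20a, 4160.1, 4496 and 4944 CPM in BMP2ADV148b, and 4079, 3853 and 3893 CPM in BMP2ADV. All 3 BMP2ADV590 libraries were above the other 9. The log2 fold change against the mean of the other groups was 0.44 (SE 0.0566, 95% interval 0.33 to 0.56, 1.36-fold, adjusted p = 1.83e-05). It was 0.58 against BMP2ADV (SE 0.0713, 1.5-fold, adjusted p = 1.41e-05). Against BMP2ADV20a it was 0.37 (adjusted p = 0.0066) and against BMP2ADV148b 0.38 (adjusted p = 0.00175). The call against BMP2ADV20a ended when BMP2ADV20a replicate 1 (adjusted p = 0.0671) or replicate 2 (adjusted p = 0.0537) was left out. BMP2ADV20a and BMP2ADV148b averaged 4578 ± 219 and 4533 ± 393 CPM, and BMP2ADV 3941 ± 121 CPM (SD, n = 3 each). Set against BMP2ADV, those hybrids had log2 fold changes of 0.22 (adjusted p = 0.258) and 0.20 (adjusted p = 0.375) and neither passed.

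Pdcd4 (ENSMUSG00000024975, chr19:53892231-53929860, plus strand) encodes a protein that binds the helicase eIF4A and restrains cap-dependent translation, and it is one of the best studied miR-21 targets. It had 46.2, 41.5 and 38.3 CPM in BMP2ADV590. It had 32.2, 33.3 and 30.3 CPM in BMP2ADV20a, 27.5, 37.7 and 33.5 CPM in BMP2ADV148b, and 31.3, 27.6 and 26.7 CPM in BMP2ADV. The groups did not overlap, but the lowest BMP2ADV590 library (38.3 CPM) was close to the highest of the other 9 (37.7 CPM). The log2 fold change against the mean of the other groups was 0.44 (SE 0.0982, 95% interval 0.23 to 0.64, 1.35-fold, adjusted p = 0.00574). Without BMP2ADV590 replicate 1 it was 0.35 and did not pass (adjusted p = 0.0709). Against BMP2ADV it was 0.56 (SE 0.124, 95% interval 0.30 to 0.81, adjusted p = 0.00536). Against the hybrids the estimates were 0.40 for BMP2ADV20a (adjusted p = 0.0991) and 0.36 for BMP2ADV148b (adjusted p = 0.112), and neither passed. BMP2ADV20a and BMP2ADV148b differed from BMP2ADV by 0.16 and 0.20 on the log2 scale (adjusted p = 0.711 and 0.7), so the order of these 3 groups is within the spread between libraries.

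All 3 BMP2ADV590 libraries lay above the other 9 for 2 of the 10 genes, Timp3 and Pdcd4, and below them for none. Over all genes tested, 6.61% had no overlap, 3.79% above and 2.81% below.

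**Figure D2:**
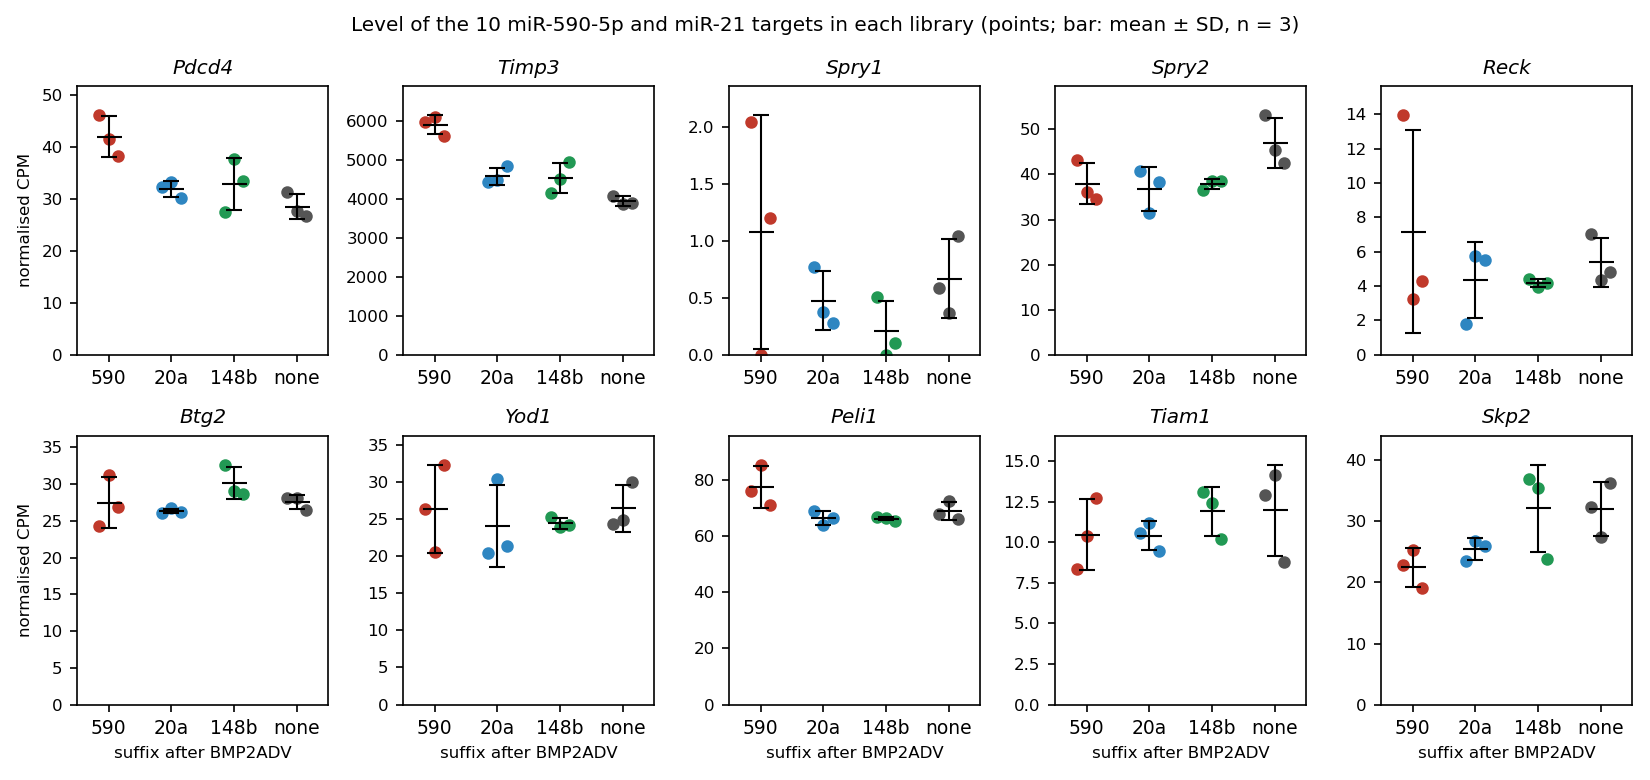
Level of each of the 10 targets in the 12 libraries; y axis, TMM-normalised CPM on a linear scale from 0; x axis, plasmid by the suffix after BMP2ADV, with none for BMP2ADV itself; points are libraries, and bars are the mean ± SD (n = 3). For Timp3 and Pdcd4 the 3 BMP2ADV590 points lie above the other 9, while for Reck 1 BMP2ADV590 library at 14.0 CPM stands far above the rest.

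Skp2 (ENSMUSG00000054115, chr15:9111985-9155425, minus strand) encodes the F-box protein through which the SCF ubiquitin ligase marks the cell cycle inhibitor p27 for degradation. It had 22.9, 25.4 and 19.1 CPM in BMP2ADV590. It had 23.5, 26.9 and 26.0 CPM in BMP2ADV20a, 37.0, 35.5 and 23.9 CPM in BMP2ADV148b, and 32.3, 27.4 and 36.2 CPM in BMP2ADV. All BMP2ADV590 libraries were below all BMP2ADV libraries but overlapped those of both hybrids. The log2 fold change against BMP2ADV was -0.51 (SE 0.154, 95% interval -0.82 to -0.19, 0.704-fold, adjusted p = 0.0422), so Skp2 fell in this comparison, in which 3.89% of all genes tested were called lower and 4.37% higher. The call did not hold in limma-voom (adjusted p = 0.0524). It also ended without BMP2ADV replicate 1 or 3, BMP2ADV20a replicate 2 or 3, or BMP2ADV590 replicate 1 or 3, with adjusted p-values up to 0.205. Against the mean of the other 3 groups the log2 fold change was -0.40 (95% interval -0.66 to -0.13, adjusted p = 0.0575). Against BMP2ADV148b it was -0.51 (adjusted p = 0.0602), and against BMP2ADV20a -0.18 (95% interval -0.50 to 0.14, adjusted p = 0.673). BMP2ADV20a differed from BMP2ADV by -0.33 (adjusted p = 0.485) and BMP2ADV148b by 0.01 (adjusted p = 0.995). Lmbrd2 lies on the opposite strand across the 5' part of Skp2, beginning 28565 bases from its 3' end. Lmbrd2 had at most 238 reads in a library, and Skp2 had 191 to 437. The sources used here do not say whether counting used strand.

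Peli1, an E3 ubiquitin ligase of Toll-like and interleukin receptor signalling (ENSMUSG00000020134, chr11:21091291-21150323, plus strand), had 76.2, 85.5 and 71.0 CPM in BMP2ADV590. It had 69.1, 63.9 and 66.6 CPM in BMP2ADV20a, 66.8, 66.5 and 65.5 CPM in BMP2ADV148b, and 68.0, 72.6 and 66.2 CPM in BMP2ADV. Only BMP2ADV590 replicate 3 lay within the range of the other 9 libraries. Against their mean it differed by 0.21 on the log2 scale (95% interval 0.05 to 0.36), which did not pass (adjusted p = 0.0882).

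Reck, a membrane-anchored inhibitor of matrix metalloproteinases (ENSMUSG00000028476, chr4:43875530-43944806, plus strand), had 14.0, 3.23 and 4.30 CPM in BMP2ADV590. It had 1.82, 5.76 and 5.53 CPM in BMP2ADV20a, 4.40, 3.92 and 4.21 CPM in BMP2ADV148b, and 7.02, 4.36 and 4.82 CPM in BMP2ADV. A single library, BMP2ADV590 replicate 1, held the high value and the other 2 of its group lay within the range of the rest. The log2 fold change against the mean of the other groups was 0.66 (95% interval -0.02 to 1.35, adjusted p = 0.255), and without that library it was -0.30 (adjusted p = 0.708). With BMP2ADV590 replicate 2 left out it was 1.01 (adjusted p = 0.0472), so the direction and the call of Reck rest on single libraries.

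The Sprouty proteins are feedback inhibitors of receptor tyrosine kinase signalling through Ras and ERK. Spry1 (ENSMUSG00000037211, chr3:37639947-37644598, plus strand) was barely counted, with 0 to 29 reads per library. It had 2.05, 0 and 1.201 CPM in BMP2ADV590, 0.769, 0.374 and 0.281 CPM in BMP2ADV20a, 0.512, 0 and 0.105 CPM in BMP2ADV148b, and 0.591, 0.371 and 1.05 CPM in BMP2ADV. Where the count was 0, up to 0.269 CPM in BMP2ADV590 replicate 2 and 0.318 CPM in BMP2ADV148b replicate 2 would go unseen, taking 3 counts as the limit for counting error. The BMP2ADV590 libraries spanned the whole range of the others, and the log2 fold change of 1.42 had a 95% interval of 0.00 to 2.89 (adjusted p = 0.237). The estimate was 0.51 without BMP2ADV590 replicate 1, 2.01 without BMP2ADV148b replicate 1 and 0.47 in limma-voom.

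Spry2 (ENSMUSG00000022114, chr14:105891947-105896819, minus strand) had 43.2, 36.1 and 34.6 CPM in BMP2ADV590. It had 40.7, 31.3 and 38.4 CPM in BMP2ADV20a, 36.7, 38.5 and 38.5 CPM in BMP2ADV148b, and 53.2, 45.3 and 42.5 CPM in BMP2ADV. The 3 hybrids overlapped one another, and BMP2ADV had the highest mean, 47.0 ± 5.56 CPM (SD, n = 3). Against BMP2ADV the log2 fold change was -0.31 in BMP2ADV590 (adjusted p = 0.13), -0.36 in BMP2ADV20a (adjusted p = 0.29) and -0.31 in BMP2ADV148b (adjusted p = 0.457). None of them passed, and they share the BMP2ADV libraries. Against the mean of the other 3 groups BMP2ADV590 differed by -0.08 (95% interval -0.29 to 0.12, adjusted p = 0.712).

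Btg2, an antiproliferative adaptor of the CCR4-NOT deadenylase (ENSMUSG00000020423, chr1:134075170-134079120, minus strand), had 24.4, 31.3 and 26.8 CPM in BMP2ADV590. The other 9 libraries ran from 26.1 to 32.7 CPM with a median of 28.1 CPM, and BMP2ADV590 libraries lay on both sides of that median. Btg2 differed from the mean of the other groups by -0.03 on the log2 scale (95% interval -0.23 to 0.18, adjusted p = 0.915).

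Yod1, a deubiquitinase that works with the ATPase VCP (ENSMUSG00000046404, chr1:130717327-130724358, plus strand), had 26.3, 20.5 and 32.3 CPM in BMP2ADV590. The other 9 libraries ran from 20.4 to 30.5 CPM with a median of 24.3 CPM. With 2 8mers it had more seed matches than any other gene of the list, and its log2 fold change was 0.08 (95% interval -0.20 to 0.35, adjusted p = 0.807). Yod1 lies within the span of Pfkfb2 on the opposite strand, which had at most 70 reads in a library.

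Tiam1, a guanine nucleotide exchange factor for the GTPase Rac1 (ENSMUSG00000002489, chr16:89787111-90143769, minus strand), had 8.33, 10.4 and 12.7 CPM in BMP2ADV590. The other 9 libraries ran from 8.80 to 14.2 CPM with a median of 11.2 CPM. It differed from their mean by -0.13 on the log2 scale (95% interval -0.48 to 0.21, adjusted p = 0.721). For Spry2, Btg2, Yod1 and Tiam1 these intervals leave room for a decrease of up to 0.29, 0.23, 0.20 and 0.48 on the log2 scale, in that order.

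**Figure D3:**
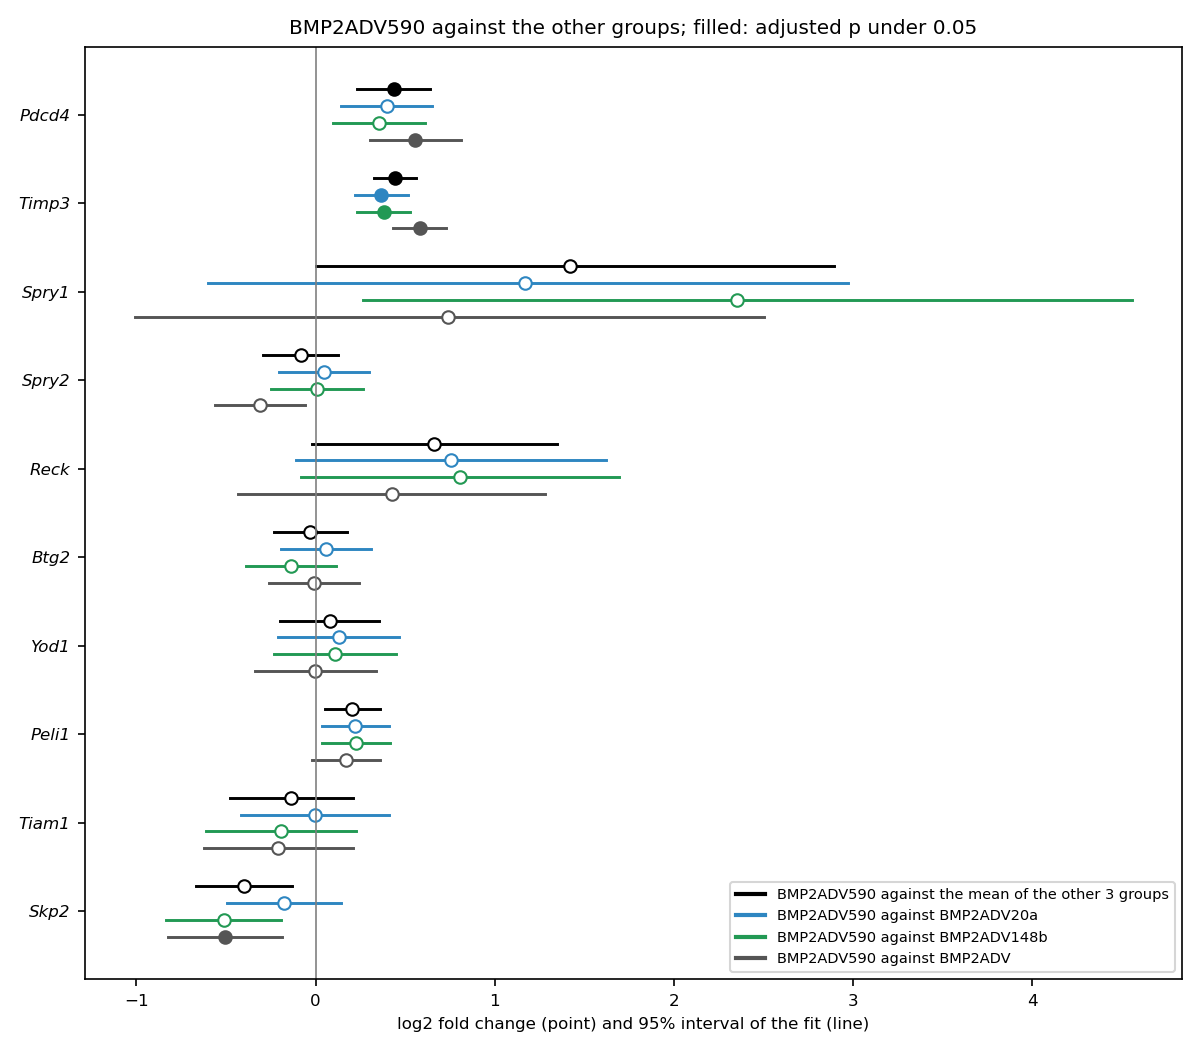
Log2 fold change of each target in BMP2ADV590 against the mean of the other 3 groups (black), BMP2ADV20a (blue), BMP2ADV148b (green) and BMP2ADV (grey); points are edgeR estimates, lines their 95% intervals, and filled points have an adjusted p under 0.05. Timp3 is filled in all 4 comparisons, Pdcd4 in 2, and Skp2, on the lower side, in the comparison with BMP2ADV alone.

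Taking BMP2ADV590 against 1 group at a time, 3 of the 10 targets passed against BMP2ADV (Timp3 and Pdcd4 higher, Skp2 lower), where 8.26% of all genes tested were called. Against BMP2ADV20a 1 passed (Timp3, higher), where 2.17% of all genes were called, 1.29% higher and 0.877% lower. Against BMP2ADV148b 1 passed (Timp3, higher), where 4.43% were called, 2.46% higher and 1.97% lower. These comparisons share the BMP2ADV590 libraries. None of the 10 passed in BMP2ADV20a against BMP2ADV (all genes 0.476%, with 0.0983% higher and 0.378% lower) or in BMP2ADV148b against BMP2ADV (all genes 0.249%, with 0.212% higher and 0.0378% lower), by edgeR or limma-voom. DESeq2 called none either, but gave an adjusted p for only 7 of the 10 in the second comparison. In edgeR, 3 of the 10 had an unadjusted p under 0.05 in the first of these (Timp3, Spry2 and Skp2) and 2 in the second (Timp3 and Spry2). Of all genes tested, 1306 had an unadjusted p under 0.05 in the first and 1115 in the second.

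Beyond the 10 targets, 279 other tested genes held an 8mer in their longest 3' UTR. In BMP2ADV590 against the mean of the other 3 groups, 16 of them were called higher (5.73%) and 14 lower (5.02%), with a median log2 fold change of -0.01. Of 10032 genes with none of the 3 motifs, 4.83% were called higher and 3.72% lower, with a median of 0.01. Against BMP2ADV the 279 genes had 15 calls higher (5.38%) and 17 lower (6.09%), and a median of -0.02. The 10032 genes with none of the motifs had 4.78% higher and 4.11% lower there, with a median of 0.0037. These shares are a description of genes that share letters, and the difference between them was not tested.

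The gene entry Mir21a, which spans the miR-21a hairpin, was listed at 0 counts in all 12 libraries. It overlaps Vmp1, and how reads in such an overlap were counted is not given. The 0 counts therefore do not show that its transcript was absent. Vmp1, within whose last part the Mir21a gene lies on the same strand (chr11:86584067-86584158), averaged 262 ± 37.5 CPM in BMP2ADV590, 240.0 ± 13.5 in BMP2ADV20a, 259 ± 6.12 in BMP2ADV148b and 252 ± 23.5 in BMP2ADV (SD, n = 3 each). Eif4h, whose human counterpart hosts miR-590, averaged 248 ± 4.93 CPM in BMP2ADV590, 241 ± 5.1 in BMP2ADV20a, 251 ± 15.1 in BMP2ADV148b and 258.0 ± 10.2 in BMP2ADV. Against the mean of the other 3 groups, the log2 fold changes were 0.07 for Vmp1 (95% interval -0.09 to 0.22) and -0.01 for Eif4h (95% interval -0.13 to 0.11), and neither passed (adjusted p = 0.69 and 0.948). Neither host gene reads out the mature miRNA that a plasmid supplies.

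Among 24 other genes reported as targets of these miRNAs, 1 was higher and 1 lower in BMP2ADV590 against the mean of the other 3 groups. The other 22 did not pass, and the median log2 fold change of the 24 was 0.04. Over all genes tested, 4.49% were called higher there and 3.57% lower. Limma-voom called 2 of the 24 higher and 1 lower. Bmpr2, a type II receptor for bone morphogenetic proteins, rose by 0.36 on the log2 scale (95% interval 0.22 to 0.50, adjusted p = 0.00125). It averaged 131 ± 3.26 CPM in BMP2ADV590, against 105 ± 7.34 in BMP2ADV20a, 103 ± 9.0 in BMP2ADV148b and 99.1 ± 2.83 in BMP2ADV (SD, n = 3 each). Tpm1, an actin-binding tropomyosin, fell by 0.21 (adjusted p = 0.0338), a call that ended without BMP2ADV590 replicate 2 or 3, BMP2ADV20a replicate 1 or 3, BMP2ADV148b replicate 1 or BMP2ADV replicate 3 (adjusted p up to 0.205). Smad7, an inhibitor of TGF-beta and BMP signalling, had a log2 fold change of 0.04, the transcriptional coactivator gene Yap1 0.05 and the TGF-beta receptor gene Tgfbr2 0.03, and none of these passed.

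The partners and pathways of the 10 targets were then counted, as lists chosen from textbook roles. These lists were read in BMP2ADV590 against the mean of the other 3 groups, where 2773 of all genes tested had an unadjusted p under 0.05. There 4.49% of all genes tested were called higher and 3.57% lower, shares to set beside the counts of calls for each list below. Of 14 close relatives of the targets (Sprouty and Spred, Timp, Btg and Tob, Peli and Tiam genes), 12 were tested and none passed, by edgeR, limma-voom or DESeq2 (which gave an adjusted p for 10 of them), with 3 at an unadjusted p under 0.05. Timp1 and Timp2, the relatives of Timp3, had log2 fold changes of -0.04 (95% interval -0.20 to 0.12) and -0.07 (95% interval -0.19 to 0.06). Whether Timp3 differed from them was not tested.

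Of 12 genes that report Ras and ERK signalling, which Sprouty proteins restrain, none was higher and 3 were lower (all genes 4.49% and 3.57%). Their median log2 fold change was -0.13. Ccnd1, the D-type cyclin of G1 phase, fell by 0.63 (adjusted p = 7.87e-06), with 377 ± 39.2 CPM in BMP2ADV590, against 579.8 ± 8 in BMP2ADV20a, 556 ± 55 in BMP2ADV148b and 615 ± 54.8 in BMP2ADV (SD, n = 3 each). The ERK phosphatase genes Dusp5 and Dusp4 fell by 0.64 (adjusted p = 0.00239) and 1.57 (adjusted p = 0.0145). Dusp4 was low, with 0.953 ± 0.282 CPM in BMP2ADV590, and its call ended in limma-voom (adjusted p = 0.0523) and without BMP2ADV590 replicate 2 (adjusted p = 0.0693). Dusp6, another ERK phosphatase, had -0.17 (adjusted p = 0.226).

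Of 11 matrix proteases and ADAM family enzymes, the kind that Timp3 and Reck inhibit, 9 were tested. Among these, 3 were higher and 2 lower (all genes 4.49% and 3.57%). Mmp11 rose by 0.92 (adjusted p = 4.39e-06), to 112 ± 17 CPM in BMP2ADV590, against 70.6 ± 6.95 in BMP2ADV20a, 68.1 ± 15.9 in BMP2ADV148b and 43.1 ± 3.09 in BMP2ADV. Adam17, the sheddase of TNF, which Timp3 inhibits, rose by 0.63 (adjusted p = 0.000134). The aggrecanase genes Adamts1 and Adamts5 fell by 0.43 (adjusted p = 0.000232) and 0.44 (adjusted p = 0.00839), and Adamts5 did not pass without BMP2ADV590 replicate 2 (adjusted p = 0.0667).

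Of 10 genes of the SCF-Skp2 ligase and the CDK inhibitors, 9 were tested. Among these, 1 was higher and 2 lower (all genes 4.49% and 3.57%). The CDK inhibitor genes Cdkn2b and Cdkn2a fell by 0.47 (adjusted p = 0.0227) and 0.36 (adjusted p = 0.0338), and Skp1a, a core subunit of the ligase, rose by 0.19 (adjusted p = 0.0466). These 3 calls ended when single libraries were left out: Cdkn2b without BMP2ADV590 replicate 1 or 2 (adjusted p up to 0.103), Cdkn2a without BMP2ADV590 replicate 2 or 3, BMP2ADV20a replicate 3, BMP2ADV148b replicate 1 or BMP2ADV replicate 1 (adjusted p up to 0.252), and Skp1a without any library other than BMP2ADV590 replicate 2 (adjusted p up to 0.309), with RLE factors (adjusted p = 0.0506) and with no filter on low counts (adjusted p = 0.0984). Cdkn1b, which encodes p27, had a log2 fold change of 0.16 (95% interval -0.11 to 0.43, adjusted p = 0.54).

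In the 11 translation initiation genes around Pdcd4 none passed, with a median of 0.01 and 2 at an unadjusted p under 0.05. None passed among the 11 CCR4-NOT genes around Btg2 (median -0.11, 2 at an unadjusted p under 0.05), the 12 tested Rac regulators around Tiam1 (0.05, 2) or the 9 partners of Yod1 (0.05, 0). Limma-voom called none in these 4 lists either, nor did DESeq2, which gave no adjusted p for 1 Rac regulator. In the 11 genes of the Toll-like receptor and NF-kappaB pathway around Peli1, 1 was lower: Rela, the p65 subunit, fell by 0.34 (adjusted p = 0.00603), with 60.2 ± 3.69 CPM in BMP2ADV590, against 75.2 ± 2.02 in BMP2ADV20a, 78.5 ± 3.38 in BMP2ADV148b and 75.4 ± 8.03 in BMP2ADV.

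**Figure D4:**
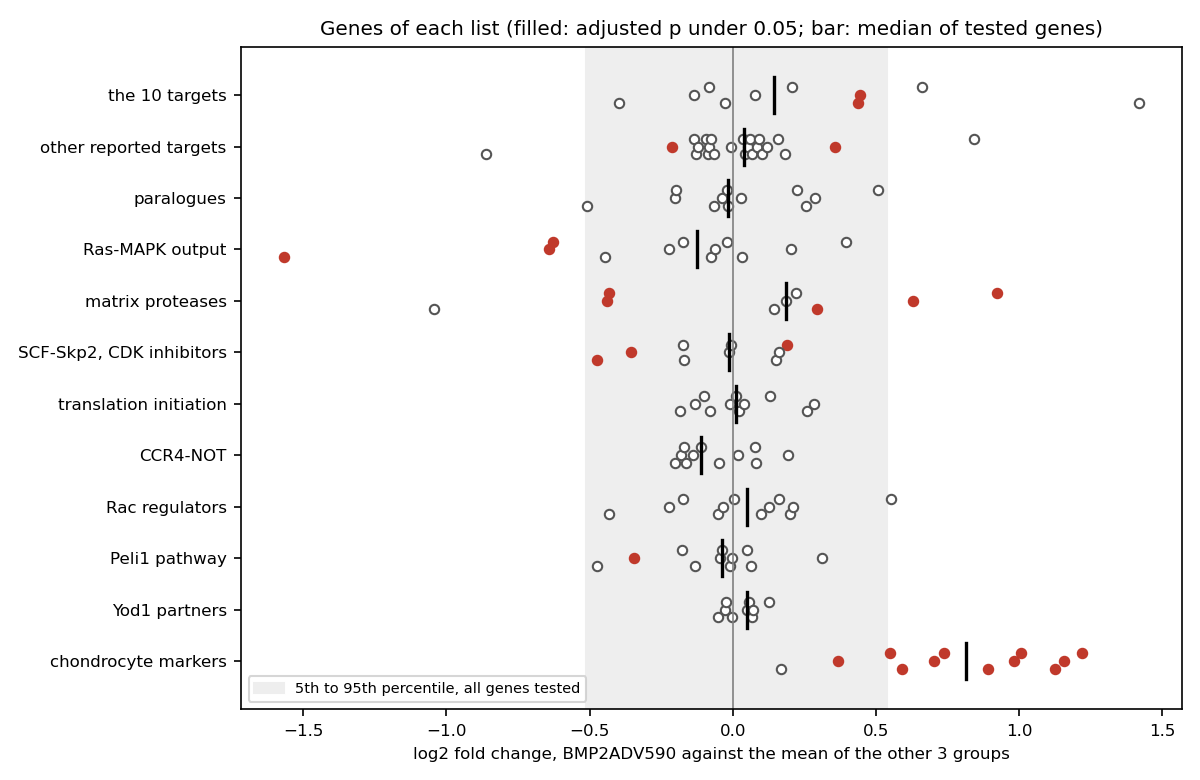
Log2 fold change in BMP2ADV590 against the mean of the other 3 groups for the tested genes of each list; points are genes, filled where the adjusted p is under 0.05, black bars are list medians, and the grey band spans the 5th to 95th percentile of all genes tested. The 10 targets have a median of 0.14 and 2 filled points, both above 0, while 11 of the 12 chondrocyte markers are filled.

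Cell type markers were read in the same contrast, and only in the chondrocyte list were most of the tested genes called. The shares over all genes tested there were 4.49% higher and 3.57% lower. Fibroblast and mesenchymal markers were present in every library, with a summed level of 21797 to 24070 CPM in BMP2ADV590 and 20467 to 23566 CPM in the other 9, and 3 of 12 were higher (Vim, Lum and Fn1). The call of Fn1 ended without BMP2ADV590 replicate 1 or 3, BMP2ADV20a replicate 3, BMP2ADV148b replicate 1 or BMP2ADV replicate 2 (adjusted p up to 0.254). Chondrocyte markers summed to 6109 to 7052 CPM in BMP2ADV590 and 3624 to 4971 CPM in the other 9, and 11 of the 12 tested of 16 were higher, with a median log2 fold change of 0.81. Col10a1, the collagen of hypertrophic cartilage, rose by 1.22 (adjusted p = 7.22e-07), and Sox9, the regulator of cartilage genes, by 0.59 (adjusted p = 3.19e-05). The part of these markers in the level of Timp3 and Pdcd4 was not tested. Macrophage, endothelial, epithelial and skeletal muscle markers summed to at most 4.98, 12.6, 5.67 and 1.89 CPM in any library, with Adgre1, Tyrobp, Cdh5, Cldn5, Krt8, Cldn4, Myod1, Myf5 and Ckm at 0. Osteoblast markers summed to 78.6 to 81.9 CPM in BMP2ADV590 and 72.5 to 97.9 CPM in the other 9, and none of the 5 tested passed by edgeR, DESeq2 or limma-voom, with 0 at an unadjusted p under 0.05. Adipocyte markers summed to 39.3 to 62.2 CPM in BMP2ADV590 and 30.9 to 55.6 CPM in the other 9, with Plin1 at 0 and Fabp4 called higher (log2 fold change 0.89), a call that ended without BMP2ADV590 replicate 1 (adjusted p = 0.223) or 3 (adjusted p = 0.0524). Neural markers summed to 144 to 180 CPM in BMP2ADV590 and 140 to 195 CPM in the other 9, with Stmn2 called higher (log2 fold change 0.35) and Map2 lower (-0.38). The call of Stmn2 ended without BMP2ADV590 replicate 1 or 3 or BMP2ADV148b replicate 1 (adjusted p up to 0.274).

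Sox9 was also among the 3 genes whose log2 CPM was most like that of Pdcd4 over the 12 libraries, with Pearson's r = 0.93, after Nucb1 (r = 0.95) and Plxna4 (r = 0.94). For Timp3 the 3 most alike were Vdr, Krt15 and Tmem158 (r = 0.98 each). These 12 libraries share their groups, so genes that differ between BMP2ADV590 and the rest correlate on that account, and the values are given as a description. All 6 were called higher in BMP2ADV590 than in the mean of the other 3 groups, as were 4.49% of all genes tested. They were picked for likeness to Pdcd4 and Timp3, which were called higher themselves, so these calls were largely set by the choice. Nucb1 did not pass without BMP2ADV590 replicate 1 (adjusted p = 0.149). Vdr, the vitamin D receptor, rose by 0.53 on the log2 scale (adjusted p = 1.49e-05) and Krt15, a keratin, by 1.10 (adjusted p = 7.22e-07).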

How the data were processed

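Total RNA of C3H/10T1/2 cells, in 12 libraries with 3 in each of 4 groups taken from the titles, was measured with QuantSeq 3' mRNA FWD libraries. The authors deposited raw counts per gene, 1 file per library. The submitters' processing notes name FastQC 0.11.5, STAR 2.5.2a, HTSeq 0.6.0, DESeq2 and GRCm38; the sources used here give no counting mode, strand setting or annotation release. Lines that hold no gene, 52.2% to 54.4% of the records of a library, were left out; gene counts were 9236431 to 14727288 per library. Intervals cover the spread of the fit, and floors of 3 counts cover counting error only, as reads carry no molecular identifiers.

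Counts were normalised by TMM, filtered by filterByExpr and fitted in edgeR 4.0.16 (R 4.3.3) with 4 group means over all 12 libraries; p-values were adjusted over the 13229 genes tested. Fold changes are on edgeR's log2 scale. Symbols came from GENCODE M21. DESeq2 1.42.0, limma 3.58.1 (voom), RLE factors, no filter, a replicate block, only the groups compared, and leaving out each library were the alternatives. The fits were tested on simulated counts. Named genes are the 10 targets, both host genes, 5 other reported targets fixed by name (1 is not reported here), up to 4 called genes of each list by smallest p, and the 3 genes most like Pdcd4 and Timp3. Dusp6, Timp1, Timp2 and Cdkn1b were added for comparison after their values were seen. The members and lists were chosen with earlier results of these data known. Within groups no libraries were duplicates, with a chi-square per degree of freedom of at least 6.38 between libraries of a group. Libraries of different groups were not compared in this way.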

Additional observations from a re-analysis of the deposited data

How the results depend on the processing

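The calls of Timp3 against the mean of the other 3 groups, against BMP2ADV and against BMP2ADV148b, and that of Pdcd4 against BMP2ADV, held under RLE factors, DESeq2, limma-voom, no filter, the replicate block and the omission of any 1 library. Replicate numbers did not pair the libraries (correlations of deviations from the group means of -0.113 to 0.0715 over 18 same-numbered pairs); with the replicate block, Skp2 against BMP2ADV did not pass (log2 fold change -0.516, adjusted p = 0.0562), nor did Tpm1 (0.0553), Fn1 (0.0695) and Skp1a (0.0841) against the mean of the other 3 groups. Without the filter on low counts, 4 of the 10 targets passed against that mean, Reck (adjusted p = 0.0446) and Skp2 (0.0194) being added. In that fit 5.09% of 24197 genes passed, 2.86% higher and 2.23% lower. Against BMP2ADV148b, 2 targets passed with no filter and also under DESeq2, Skp2 being added. Over all genes, the alternatives other than leaving out single libraries gave 400 to 767 calls in that comparison. Spry1 against BMP2ADV, 0.74 in edgeR, changed sign in limma-voom (-0.312), and the cause was not tested. Estimates near 0 changed sign too, with the cause not tested: Yod1 against BMP2ADV with no filter (0.000905), and, under the replicate block, Tiam1 against BMP2ADV20a (0.00826) and Spry2 against BMP2ADV148b (-0.00256). Spry1 had 0 to 29 reads per library, and its 95% interval was the widest of the 10.

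Leaving out 1 library at a time gave 1 to 4 targets called against the mean of the other 3 groups, 2 to 3 against BMP2ADV, 0 to 1 against BMP2ADV20a and 1 to 2 against BMP2ADV148b. Over all genes it gave 623 to 1159 calls against the mean of the other 3 groups (1066 with all libraries), 565 to 1115 against BMP2ADV (1093), 64 to 489 against BMP2ADV20a (287) and 241 to 656 against BMP2ADV148b (586). It gave 18 to 108 calls for BMP2ADV20a against BMP2ADV (63) and 3 to 60 for BMP2ADV148b against BMP2ADV (33). Other settings moved counts of calls by over 1.5 times: 519 (no filter) and 172 (replicate block) for BMP2ADV590 against BMP2ADV20a; 108 (DESeq2), 184 (no filter), 36 (replicate block) and 145 (only the groups compared) for BMP2ADV20a against BMP2ADV; and 83, 126 and 14 for BMP2ADV148b against BMP2ADV under the first 3 of these.

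Ranges that crossed 0 when 1 library was left out were, against the mean of the other 3 groups, -0.304 to 1.01 for Reck, -0.132 to 0.0472 for Btg2, -0.0897 to 0.228 for Yod1, -0.295 to 0.00646 for Tiam1, -0.0108 to 0.174 for Vmp1, -0.0422 to 0.111 for Smad7 and -0.0712 to 0.165 for Tgfbr2. Against BMP2ADV they were -0.172 to 1.30 for Spry1, -0.537 to 0.774 for Reck, -0.111 to 0.0688 for Btg2 and -0.169 to 0.15 for Yod1. Against BMP2ADV20a they were -0.0671 to 0.1247 for Spry2, -0.214 to 1.10 for Reck, -0.045 to 0.132 for Btg2, -0.0399 to 0.332 for Yod1 and -0.164 to 0.136 for Tiam1. Against BMP2ADV148b they were -0.105 to 0.0656 for Spry2, -0.16 to 1.15 for Reck and -0.0605 to 0.257 for Yod1.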
